A study of Mus musculus with 6 samples.

Results

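Gabarapl1 and Nrbf2 are the 2 autophagy genes described here. They were found by symbol among the 54 gene rows of the deposited table, after each Ensembl identifier had been matched to its mouse symbol. The samples were 3 islet RNA libraries of C57BL/6 mice on high-fat food and, as controls, 3 islet RNA libraries of C57BL/6 mice on normal food. Islets are the endocrine clusters of the pancreas that hold the insulin-secreting beta cells. All 6 libraries came from whole isolated islets under standard animal care, with no transgene or drug named in the labels. The sample labels give 22 weeks of feeding for both diets and the series design text gives 27 weeks. Age, sex and the number of mice behind a library were not given in the labels used here, so the spread between libraries may be technical. Values are FPKM, fragment counts divided by transcript length and by library size, and the read depth behind them is unknown.

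Autophagy is the pathway by which a cell encloses cytoplasm, organelles or protein aggregates in a double membrane and delivers them to the lysosome. Gabarapl1 encodes a ubiquitin-like protein of the Atg8 family. Atg8 proteins are attached to phosphatidylethanolamine on the growing autophagosome membrane, where they bind cargo receptors and help the membrane mature. Nrbf2 encodes a subunit of the class III phosphatidylinositol 3-kinase complex that holds Vps34, Vps15, Beclin 1 and Atg14, and that makes the phosphatidylinositol 3-phosphate on which autophagosomes form. In mice, beta cells that lack the conjugation enzyme Atg7 lose mass and secrete less insulin. FPKM measures the transcript; lipid-bound Gabarapl1 protein, kinase activity and autophagic flux were not measured.

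The RefSeq sequences upstream of both genes are shown because the members had like profiles over the libraries, and because these stretches differ in base composition. Both are on build GRCm38.p6 and written 5′ to 3′ on the gene's own strand, and each ends at the base before the outermost start in RefSeq or GENCODE, which is 129533160 (GENCODE) for Gabarapl1 and 67285343 (RefSeq) for Nrbf2. Capitals mark the matches to the motifs searched.
Gabarapl1 (chr6:129532942-129533159, plus strand): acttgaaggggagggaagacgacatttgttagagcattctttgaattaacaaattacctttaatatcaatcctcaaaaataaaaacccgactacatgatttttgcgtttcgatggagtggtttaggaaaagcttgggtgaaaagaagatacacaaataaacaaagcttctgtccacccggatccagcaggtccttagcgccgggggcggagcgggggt
Nrbf2 (chr10:67285344-67285531, minus strand): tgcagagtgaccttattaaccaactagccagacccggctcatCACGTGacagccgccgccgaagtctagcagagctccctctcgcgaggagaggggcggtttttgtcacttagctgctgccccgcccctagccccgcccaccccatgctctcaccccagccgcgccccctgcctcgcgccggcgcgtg
RefSeq's full window of 300 bases (250 before and 50 from the start) is set on another start, 129533192 for Gabarapl1 and 67285281 for Nrbf2, and runs past the printed stretch. Over that window, Gabarapl1 had a GC content of 46.3% and 12 CpG dinucleotides. The Nrbf2 window had a GC content of 71.0% and 40 CpG dinucleotides. Of 32851 such windows, 26.2% had a lower GC content than Gabarapl1 and 91.8% a lower one than Nrbf2, and the median was 52.7%. The median window held 7 CpG dinucleotides. The Gabarapl1 window therefore lay below the middle of all promoters by GC and the Nrbf2 window near the top.

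Motifs were searched on both strands in the same windows. The E-box CACGTG, the core bound by TFEB and by the clock transcription factors, occurred 1 time in the Nrbf2 window, with its first base 208 bases before the window's start at 67285281, and did not occur in the Gabarapl1 window. It is present in 7.15% of all windows. The CLEAR palindrome of lysosomal gene promoters, which is this E-box with GT before and AC after it, had an exact match in neither window and in 0.326% of all windows. The E-box of the Nrbf2 window has AT before it and AC after it, so it differs from the palindrome in the first letter. The FoxO site, searched as TGTTTAC (3.65% of all windows), and the AP-1 site, searched as TGANTCA (7.81%), also occurred in neither. Only the strings given here were searched, so variants of a site were not counted. These matches describe letters in the window; binding was not measured.

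Gabarapl1 (ENSMUSG00000030161) had 31.9, 27.7 and 37.3 FPKM in the high-fat libraries 1, 2 and 3, and 24.4, 14.4 and 16.5 FPKM in the normal-diet libraries 1, 2 and 3. Every high-fat library was above every normal-diet library, and the closest pair was high-fat library 2 and normal-diet library 1. The mean was 32.3 ± 4.82 FPKM on the high-fat diet and 18.4 ± 5.27 FPKM on the normal diet (SD, n = 3 each), a ratio of 1.75 and a log2 ratio of 0.81. Over the 9 pairs of a high-fat and a normal-diet library, the ratio ran from 1.14 to 2.58. The gap between the diets, 3.31 FPKM from the lowest high-fat to the highest normal-diet library, was smaller than the SD of either group.

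Nrbf2 (ENSMUSG00000075000) had 3.14, 2.43 and 3.28 FPKM in the high-fat libraries 1, 2 and 3, and 2.32, 1.48 and 1.68 FPKM in the normal-diet libraries 1, 2 and 3. The diets again did not overlap, but high-fat library 2 and normal-diet library 1 nearly met. The mean was 2.95 ± 0.455 FPKM on the high-fat diet and 1.83 ± 0.443 FPKM on the normal diet (SD, n = 3 each), a ratio of 1.62 and a log2 ratio of 0.69. Over the 9 pairs of libraries the ratio ran from 1.05 to 2.23. The gap of 0.108 FPKM between the diets was far smaller than the SD of either group.

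**Figure D1:**
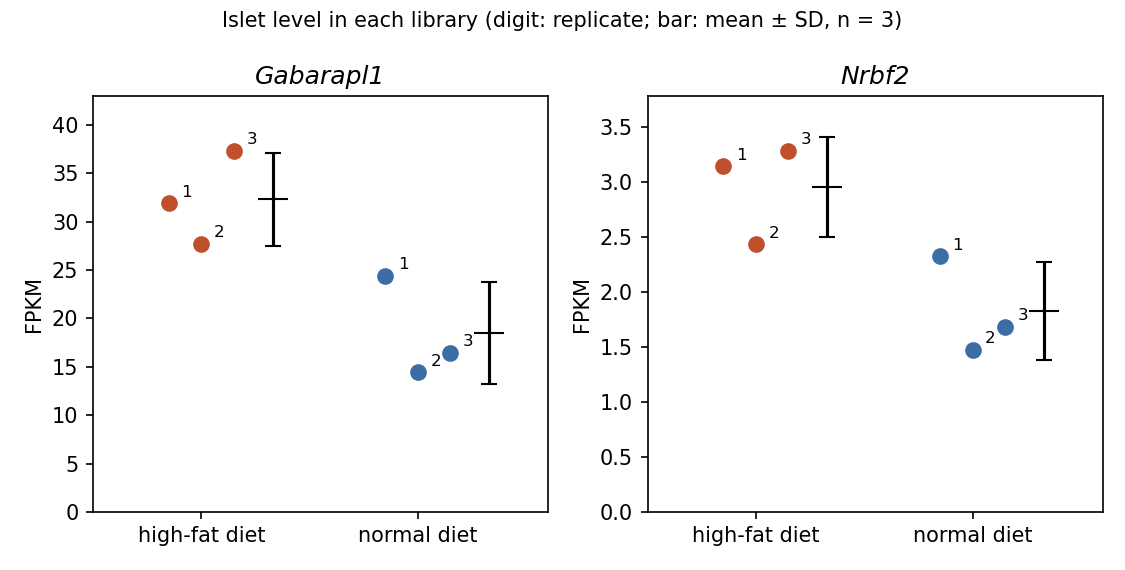
FPKM of Gabarapl1 (left panel) and Nrbf2 (right panel) in the high-fat and normal-diet libraries; each point is 1 library with its replicate number, and the bar is the mean ± SD (n = 3). In both panels high-fat library 2 is the lowest of its diet and normal-diet library 1 the highest of its own, 27.7 against 24.4 FPKM for Gabarapl1 and 2.43 against 2.32 FPKM for Nrbf2.

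These diet differences are given as a description with no test, because the members come from rows that were picked on the same contrast in the same libraries. In the authors' deposited table Gabarapl1 has a p of 0.0016 and Nrbf2 a p of 0.0029, ranks 8 and 16 of the 54 rows by p. The test behind them is not given in the sources used here, and every row of the authors' deposited table has a p below 0.01, the highest being 0.00999. Both members are among the 33 rows whose high-fat libraries all lay above the normal-diet libraries, which is 61.1% of the 54 rows. In either direction, 94.4% of the rows had diets that did not overlap. In whole islets, a change in the number of cells of a type and a change in RNA per cell cannot be told apart.

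By level, Gabarapl1 ranked 3 of the 54 rows, with a mean of 25.4 FPKM over the 6 libraries, and Nrbf2 ranked 16, with 2.39 FPKM. By log2 ratio, Gabarapl1 ranked 27 and Nrbf2 33 of the 54, where rank 1 is the row most raised on the high-fat diet. Among the 26 rows that averaged 1 FPKM or more they ranked 17 and 22, and the median log2 ratio of those rows was 0.88. Gabarapl1 was therefore high in level within the table, while Nrbf2 ranked 16 by level also among these 26 rows. Both members were below the middle of the 26 rows in the size of the diet ratio.

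**Figure D2:**
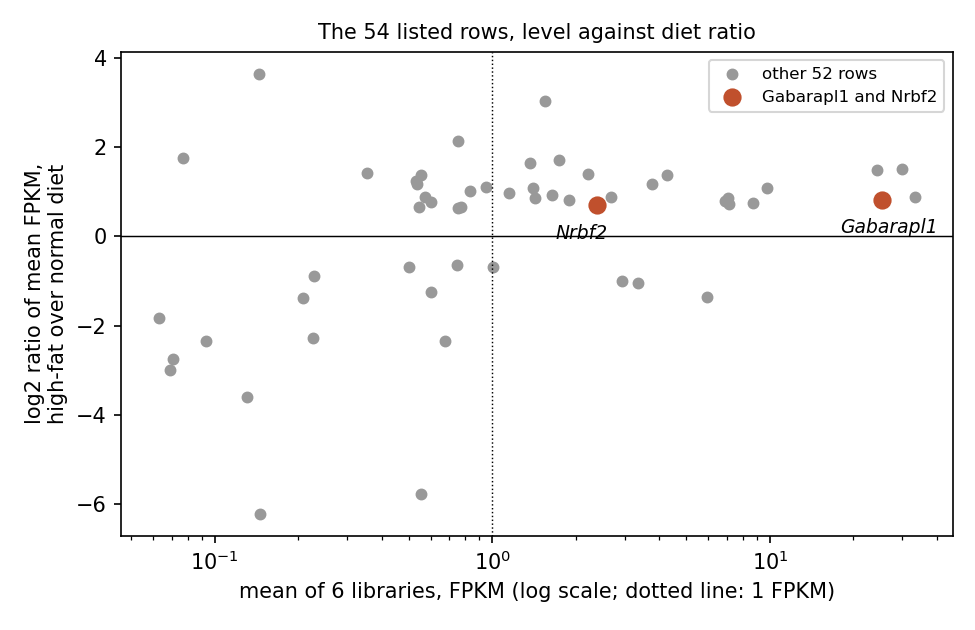
Each point is 1 of the 54 rows, with the mean of the 6 libraries in FPKM on a log scale (x axis) and the log2 of the high-fat mean over the normal-diet mean (y axis). Gabarapl1, at 25.4 FPKM and 0.81, and Nrbf2, at 2.39 FPKM and 0.69, lie in the band of moderate positive ratios on the right of the plot.

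The level of Gabarapl1 relative to Nrbf2 varied far less over the libraries than either gene did. FPKM is per length, so it can be compared between genes as far as reads were assigned to the right gene. The sequence that both genes share with other transcripts, given below, limits this. A ratio within a library does not depend on how that library was scaled. Gabarapl1 FPKM divided by Nrbf2 FPKM was 10.2, 11.4 and 11.4 in the high-fat libraries 1, 2 and 3, and 10.5, 9.79 and 9.79 in the normal-diet libraries 1, 2 and 3. High-fat library 1 lay below normal-diet library 1, so the diets overlapped in this ratio. Its mean was 10.98 ± 0.707 on the high-fat diet and 10.03 ± 0.411 on the normal diet (SD, n = 3 each), a difference of 0.949. Its coefficient of variation over the 6 libraries was 6.98%, against 34.8% for Gabarapl1 FPKM and 30.8% for Nrbf2 FPKM. Both rows were picked on the same diet contrast, so a shift with diet that they share cancels in their ratio. No other pair of rows was compared in this way. By the profile distance given below, Nudt4, Mapkapk3 and Arl10 were nearer to Gabarapl1 than Nrbf2 was. A steady ratio was therefore not shown to be particular to this pair.

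Gabarapl1 and Nrbf2 also ordered the 6 libraries in the same way. From low to high the order was normal-diet library 2, normal-diet library 3, normal-diet library 1, high-fat library 2, high-fat library 1 and high-fat library 3. It was shared by 13 of the 54 rows, the members included, and by 11 of the 26 rows with a mean of at least 1 FPKM. Of the 20 such rows whose high-fat libraries all lay above the normal-diet libraries (76.9% of the 26), normal-diet library 1 was the highest control in 16 and high-fat library 2 the lowest high-fat library in 18. The order is thus common in the table.

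The median over the listed rows, all picked on the diet contrast, moved with these values; the level of the rest of each library is not known here. The median FPKM over the 54 rows was 1.27, 0.982 and 1.304 in the high-fat libraries 1, 2 and 3, and 1.09, 0.548 and 0.642 in the normal-diet libraries 1, 2 and 3. Divided by that median, Gabarapl1 averaged 27.3 ± 1.91 on the high-fat diet and 24.8 ± 2.17 on the normal diet, a log2 ratio of 0.14. Nrbf2 averaged 2.49 ± 0.0240 on the high-fat diet and 2.48 ± 0.310 on the normal diet, a log2 ratio of 0.0062. On this scale the diets overlapped for both genes, while 38.9% of the 54 rows still had every high-fat library above every normal-diet library.

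The result differed when only better-expressed rows set the scale. Divided by the library median over these 26 rows, which averaged 1 FPKM or more, Gabarapl1 ran from 9.31 to 10.8 in the high-fat libraries and from 6.03 to 7.90 in the normal-diet libraries, a log2 ratio of 0.47. Nrbf2 ran from 0.849 to 0.948 in the high-fat libraries and from 0.616 to 0.768 in the normal-diet libraries, a log2 ratio of 0.35. For both genes the diets did not overlap on this scale, as was the case for 84.6% of the 26 rows in the same direction. Of the 54 rows, 36 lay higher and 18 lower in the high-fat libraries by mean, so a median over these picked rows is not a neutral scale. The part of a library-wide shift in the diet difference of Gabarapl1 and Nrbf2 was not tested.

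**Figure D3:**
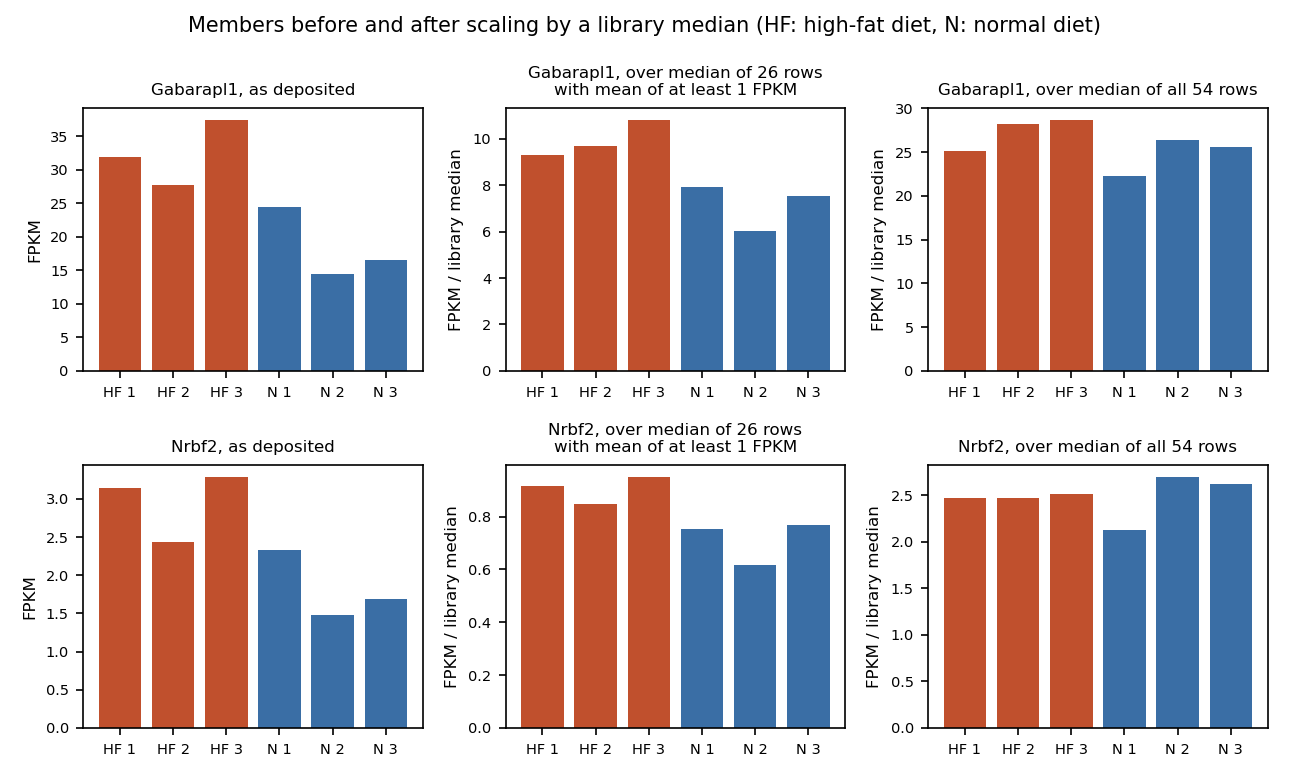
Gabarapl1 (top) and Nrbf2 (bottom) in each library, as deposited FPKM (left), divided by the library median over the 26 rows with a mean of at least 1 FPKM (middle), and divided by the library median over all 54 rows (right); HF is the high-fat and N the normal diet. The bars of the high-fat libraries are all taller than those of the normal-diet libraries on the left and in the middle, with log2 ratios of 0.81 and 0.47 for Gabarapl1 and 0.69 and 0.35 for Nrbf2, and overlap with them on the right.

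The rows with the profiles most like the members were found over the 6 libraries by the root mean square difference of log2(FPKM + 0.1), with each gene centred on its own mean, among rows that averaged 1 FPKM or more. The nearest to Gabarapl1 were Nudt4, a diphosphoinositol polyphosphate phosphohydrolase gene, at a distance of 0.073, Mapkapk3, a kinase gene downstream of p38, at 0.087, and Arl10, an ADP-ribosylation factor-like GTPase gene, at 0.090. Nrbf2 was rank 5 of the 25 other rows for Gabarapl1, at 0.10, where the median distance was 0.27. The nearest to Nrbf2 were Arl10 at 0.097, Gabarapl1 at 0.10 and Mapkapk3 at 0.11, against a median of 0.33. With log2(FPKM + 1), Nudt4 was the named row that stayed among the nearest 3 of Gabarapl1, and Arl10 and Mapkapk3 stayed for Nrbf2.

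**Figure D4:**
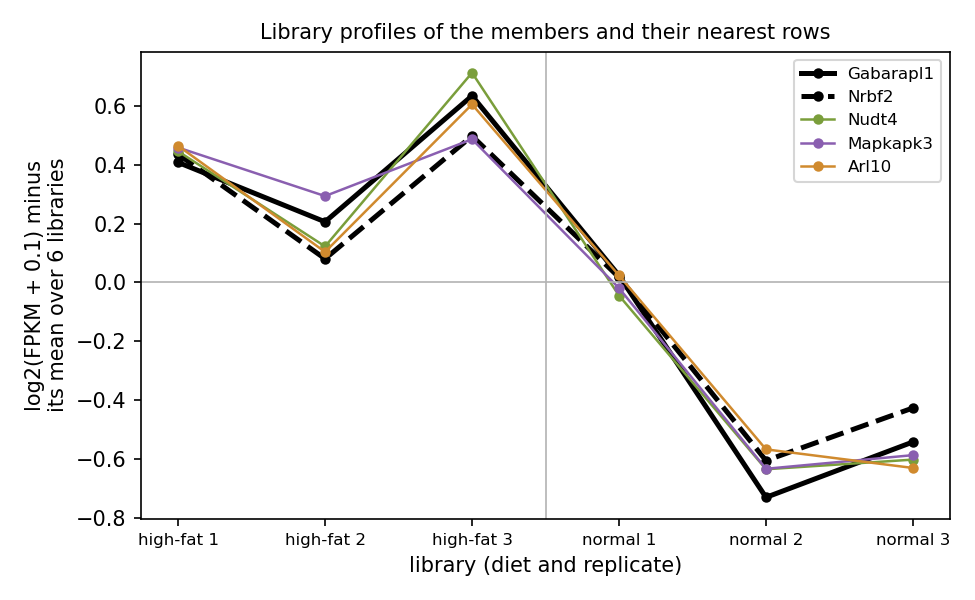
The y axis is log2(FPKM + 0.1) minus its mean over the 6 libraries, and the x axis lists the libraries by diet and replicate; lines only join the points of 1 gene. Gabarapl1, Nrbf2 and the 3 rows nearest to Gabarapl1 (Nudt4, Mapkapk3 and Arl10) run close together, as these rows were chosen to do. Of the 3, Arl10 and Mapkapk3 were also among the nearest 3 of Nrbf2. In all of these genes high-fat library 2 is lowest among the high-fat libraries and normal-diet library 1 highest among the normal-diet libraries.

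The 3 rows named as nearest had diet ratios like those of the members. They were chosen by their profile over the same libraries, so this likeness follows from the choice and is not a separate result. Nudt4 averaged 9.10 ± 1.86 FPKM on the high-fat diet and 5.01 ± 1.24 FPKM on the normal diet, a ratio of 1.81. Mapkapk3 averaged 1.85 ± 0.138 FPKM on the high-fat diet and 1.02 ± 0.279 FPKM on the normal diet, also a ratio of 1.81. Arl10 averaged 2.398 ± 0.430 FPKM on the high-fat diet and 1.37 ± 0.389 FPKM on the normal diet, a ratio of 1.75 (SD, n = 3 each).

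No other autophagy gene of the lists used here was among the 54 rows. The 9 lists held 80 genes, of which Gabarapl1 and Nrbf2 were present, both higher on the high-fat diet, and 78 were not among the rows. Of the Atg8 family, 1 of 5 genes was present, and Map1lc3a, Map1lc3b, Gabarap and Gabarapl2 were not. Of the phosphatidylinositol 3-kinase complex and its regulators, 1 of 8 was present, and Pik3c3, Pik3r4, Becn1, Atg14, Uvrag, Rubcn and Ambra1 were not. The lists of the Ulk1 initiation complex, the conjugation enzymes, the Atg9 and WIPI proteins, cargo receptors such as Sqstm1, the fusion machinery, the lysosome and autophagy regulators such as Foxo1 and Tfeb had no member among the rows. Nothing is known here of the levels of those 78 genes. The same holds for 47 markers of islet endocrine, acinar, duct, endothelial, stromal and blood cells, of which none was among the rows, so the islet label could not be checked against its defining genes.

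On GRCm38 (GENCODE M21), Gabarapl1 lies on chromosome 6 from 129533160 to 129542346 on the plus strand, and Nrbf2 on chromosome 10 from 67266689 to 67285305 on the minus strand. Gabarapl1 has 4 annotated protein-coding transcripts over 2013 exon bases, and its longest, of 1820 bases, has 4 exons and a coding part of 351 bases. Nrbf2 has 2 annotated protein-coding transcripts over 1860 exon bases, and its longest, of 1813 bases, has 4 exons and a coding part of 861 bases. The deposited values are per gene, so the transcripts of either gene cannot be told apart.

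Both genes share sequence with other annotated transcripts. The non-coding gene 1700101I11Rik, on the opposite strand of chromosome 6 from 129531950 to 129533817, overlaps 570 of the 2013 exon bases of Gabarapl1 (28.3%), at its 5′ end. The strand setting of the counting is not given in the sources used here, so reads of both genes in that stretch cannot be told apart. Of the 1790 words of 31 bases in the longest Gabarapl1 transcript, 349 (19.5%) occurred in 1700101I11Rik, and none of the remaining words occurred in another gene. Gabarapl1 shared 0 such words with each of the other 4 Atg8 family genes compared, Map1lc3a, Map1lc3b, Gabarap and Gabarapl2.

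Nrbf2 has near copies on chromosome 14. Of the 1783 words of 31 bases in its longest transcript, 1416 (79.4%) also occurred in transcripts annotated as Gm6740 or Gm6755, and in the coding part the share was 76.7%. Gm6740 is annotated as a processed pseudogene from 52861767 to 52862630 within a longer unclassified transcript from 52860985 to 52862752, and Gm6755 as a processed pseudogene from 53172727 to 53173590. How the authors' counting divided reads that fit several places is not given in the sources used here, and neither copy is among the 54 rows. The Nrbf2 level and its diet ratio are uncertain to that extent, more so than those of Gabarapl1, whose shared stretch is confined to the first part of the transcript.

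**Figure D5:**
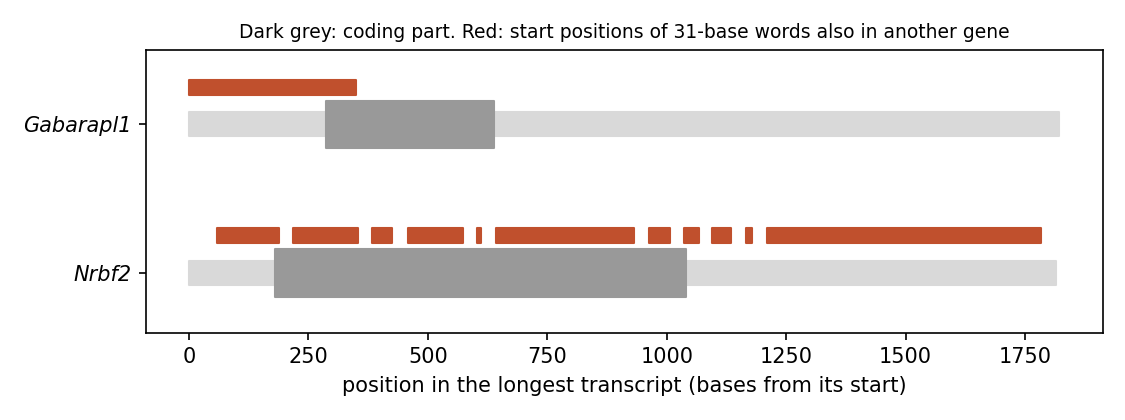
The longest annotated transcript of Gabarapl1 (1820 bases) and of Nrbf2 (1813 bases), by distance in bases from its start; dark grey is the coding part and red marks the start positions of 31-base words that also occur in a transcript of another gene. The red marks cover the first 349 positions of Gabarapl1 and, in several stretches, most of Nrbf2.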

How the data were processed

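RNA of 6 islet preparations was sequenced, 3 per diet, with a Vazyme total RNA kit per the labels' protocols. Trimmomatic 0.36, HISAT2 2.1.0, StringTie 1.3.3 and GRCm38 are named, with no role, per the submitters' processing notes. The deposited FPKM values, 1 column per library, are the authors' per the file headers, as are the p-values, the log2 fold changes and the score and effect size columns. The authors' means, SDs and log2 fold changes were recomputed, and all 54 rows agreed within 1e-09. Depth is unknown, and no step worth 1 read was found at low values.

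Values were computed with Python 3.11.15 and pandas 2.3.3: log2 ratios of mean FPKM without a pseudocount, within-library ratios, ranks, profile distances with a pseudocount of 0.1 FPKM, and shared words of 31 bases in GENCODE M21 transcripts. The calculation was checked on simulated data. No test of the diets was run, since the rows were picked on this contrast. The members, the gene lists, the motifs and the alternatives were chosen with earlier results of these data known. Named genes are the members, other rows in the autophagy lists, and for each member the 3 nearest profiles among the 26 rows averaging 1 FPKM or more. All 54 identifiers matched a symbol, and both members matched a RefSeq promoter.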

Additional observations from a re-analysis of the deposited data

How the results depend on the processing

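Among the 44 recomputed values, no log2 ratio between diets changed sign, and counts and shares of rows have no sign to change. For both members every high-fat library lay above every normal-diet library. Leaving out 1 library, taking medians or adding a pseudocount therefore could not reverse their diet difference. Of the 44 values, 9 moved by more than the spread between replicates or, for counts, by more than 1.5 times. A further 2 shares of rows, which have no spread, also changed. The log2 ratio of Gabarapl1, 0.81, was 0.14 after division by the library median over all 54 rows and 0.47 over the 26 rows with a mean of at least 1 FPKM; that of Nrbf2, 0.69, was 0.0062 and 0.35. The cause was not tested. Leaving out 1 library gave 0.66 to 1.06 for Gabarapl1 and 0.56 to 0.90 for Nrbf2, in each case lowest without normal-diet library 2 and highest without normal-diet library 1. The log2 ratio between diets of Gabarapl1 over Nrbf2, 0.13, was 0.31 with FPKM + 1, 0.22 with medians and 0.10 to 0.18 with 1 library left out. The count of rows whose diets did not overlap, 51 of 54, was 24 among the 26 better-expressed rows. That drop is among the 9 moves, though only 26 rows were available to count. After division by the median over all rows the count was 39. It was 51 to 54 with 1 library left out, a step that cannot lower it. The share of rows with a higher log2 ratio was 48.1% for Gabarapl1 and 59.3% for Nrbf2 over all rows, against 61.5% and 80.8% of the 26. Of the nearest 3 rows, 1 was kept for Gabarapl1 with log2(FPKM + 1), and 1 for Nrbf2, Arl10, when rows of any level could be chosen. The library numbers used here only count the libraries within each diet, and the same number in both diets does not mark a pair. No paired analysis was possible because the labels give the diets no shared replicate numbers. What the unknown depth and the copies of Nrbf2 do to its values was not measured.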
